A study of Mus musculus and Homo sapiens with 4 samples.

Results

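Enzymes that make, convert and remove androgens and oestrogens were followed across 2 RNA-seq libraries labelled VCaP and VCaP ERα. The genes were named by symbol, with earlier results of these data known: UGT2B15, UGT2B17, UGT2B11, UGT2B28, SRD5A1, SRD5A2, HSD17B4, HSD17B2, AKR1C3 and CYP19A1. Each of these 10 genes was found among the 25932 entries listed for the human libraries, on 12 entries in all, and the entry with the highest mean value stood for a symbol that was listed on several entries. Levels are RPKM, read numbers scaled to transcript length and to the number of mapped reads, as deposited by the authors.

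VCaP is a human prostate cancer line, labelled here as passages 5 to 6. The study describes VCaP ERα as VCaP cells made to overexpress oestrogen receptor alpha, labelled as passages 4 to 5. The study's text describes the ERα expression as stable and names a pcDNA3.1-ERα plasmid, and neither it nor the labels state whether the cells were 1 clone or a pool. Both lines grew in DMEM with 10% fetal bovine serum and 1% penicillin streptomycin, no hormone treatment is given for the RNA, and serum supplies steroids to both. Each line gave 1 library, made from 1 µg of total RNA after removal of ribosomal RNA, with dUTP marking the second strand. The series holds 4 libraries. The other 2 are from mouse embryonic fibroblasts, wild type and NEAT1 knockout, labelled as passages 2 to 3. With 1 library per line there was no spread between replicates and no test, so every difference below is a difference between these libraries.

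Androgens are formed and removed by a short chain of enzymes. Reductive 17β-hydroxysteroid dehydrogenases and AKR1C3 turn weak keto-androgens into testosterone, 5α-reductases turn testosterone into the stronger androgen dihydrotestosterone, and aromatase turns androgens into oestrogens. Oxidative 17β-hydroxysteroid dehydrogenases run the first step backwards, and UGT2B glucuronosyltransferases attach glucuronic acid to androgens and their metabolites so that they can leave the cell. In prostate cells UGT2B15 and UGT2B17 are the best known enzymes of that last step, and androgens are known to lower both.

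The overexpressed gene and the cell type markers were read first. ESR1, the gene of the overexpressed receptor, was at 15.7 RPKM in the library labelled VCaP against 209 RPKM in VCaP ERα. In each pair of values from here on the library labelled VCaP comes first. All 11 prostate luminal markers examined were above a log2 ratio of 2 in favour of VCaP ERα, beside 2.27% of all entries. Their levels ran from 0 to 8.18 RPKM in the library labelled VCaP and from 3.16 to 694 RPKM in VCaP ERα. KLK4 and FOLH1 were listed at 0 in the library labelled VCaP, and the list summed to 16.6 and 2195 RPKM. Of 12 luminal breast markers, 9 were lower in VCaP ERα, with sums of 2709 and 233 RPKM. Of 6 basal epithelial markers, 4 were lower, each below -2, with sums of 58.7 and 4.09 RPKM. The 8 hepatocyte markers summed to 12.9 and 15.2 RPKM. Of all entries, 41.2% were lower in VCaP ERα and 6.56% were below -2. Among entries that reached 1 RPKM in either library these shares were 64% and 12.2%. The prostate luminal markers thus go against the prostate label of the library labelled VCaP. Any difference given below is one between libraries that also differ in these lists. The part of the marker difference in the enzyme values was not tested, nor was whether both libraries come from the same line. In bulk RNA, fewer cells of a type and less RNA per cell cannot be told apart.

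The steroid-metabolising enzymes were mostly near or at 0 in both libraries, and 3 of them carried nearly all of the signal. HSD17B4, SRD5A1 and AKR1C3 reached 1 RPKM in at least 1 library, and the other 7 stayed under 1 RPKM in both, against 46.2% of all entries. By library, 3 enzymes reached 1 RPKM in the library labelled VCaP (45.4% of all entries) and 2 in VCaP ERα (46%). In the library labelled VCaP the order was HSD17B4, SRD5A1, AKR1C3, UGT2B15 and CYP19A1, with UGT2B17, UGT2B11, UGT2B28, SRD5A2 and HSD17B2 listed at 0. In VCaP ERα it was HSD17B4, SRD5A1, AKR1C3, UGT2B11, CYP19A1, UGT2B17, SRD5A2, HSD17B2 and UGT2B15, with UGT2B28 at 0. Thus 5 enzymes were at 0 in the library labelled VCaP (33.8% of all entries) and 1 in VCaP ERα (13.9%). Of those 5, 4 were above 0 in VCaP ERα and none reached 1 RPKM there, beside 63.9% and 10.7% of all entries at 0 in the library labelled VCaP. The first 3 places were held by the same genes in both libraries, and without replicates no pair of neighbours in either order can be said to differ. The 10 levels summed to 26.3 RPKM in the library labelled VCaP against 44.7 RPKM in VCaP ERα, and HSD17B4 alone gave 17.5 and 39.4 RPKM of these sums.

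**Figure D1:**
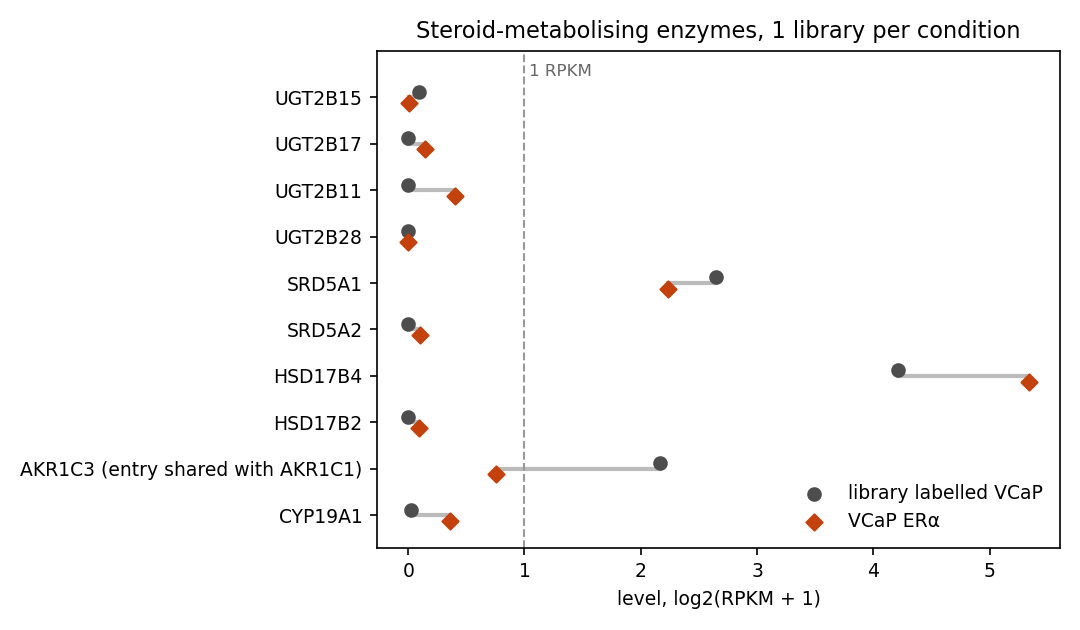
Level of each enzyme as log2(RPKM + 1) on the horizontal axis, with circles for the library labelled VCaP and diamonds for VCaP ERα, 1 library each. HSD17B4 and SRD5A1 lie to the right of the 1 RPKM line in both libraries, AKR1C3 lies there in the library labelled VCaP only, and the other 7 enzymes sit left of the line in both.

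Differences were measured as the study does, as log2 of the ratio of (RPKM + 1) in VCaP ERα to (RPKM + 1) in the library labelled VCaP, with 2 as the threshold. The added 1 RPKM shrinks the change of low genes: an entry at 0 in one library must reach 3 RPKM in the other to pass. None of the 10 enzymes was above 2, beside 2.27% of all entries, and none was below -2, beside 6.56% of all entries. In direction, 6 enzymes were higher in VCaP ERα (46.6% of all entries), 3 were lower (41.2%) and UGT2B28 was 0 in both (12.2%). Their median log2 ratio was 0.10, and that of all entries was 0. The 3 enzymes that reached 1 RPKM had log2 ratios of 1.13 (HSD17B4), -0.41 (SRD5A1) and -1.41 (AKR1C3), so they moved in both directions.

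The scale between the libraries bears on every small difference here. The median log2 ratio of the 9754 entries at 1 RPKM or above in each library was -0.59. Of the 13954 entries that reached 1 RPKM in either library, 36% were higher and 64% lower in VCaP ERα, and of the 3 enzymes among them 1 was higher and 2 were lower. Relative to that shift, SRD5A1 turned from lower to higher in VCaP ERα. The centring adds 0.59 to every log2 ratio, which puts UGT2B28, 0 in both libraries, at 0.59, so it carries no direction for the enzymes near 0. Quantile normalization put UGT2B28 at -0.06, so its sign carries no direction for them either. HSD17B4 remained higher and AKR1C3 lower under centring on this median and under quantile normalization. Centring could turn neither, since it adds 0.59 to log2 ratios of 1.13 and -1.41.

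**Figure D2:**
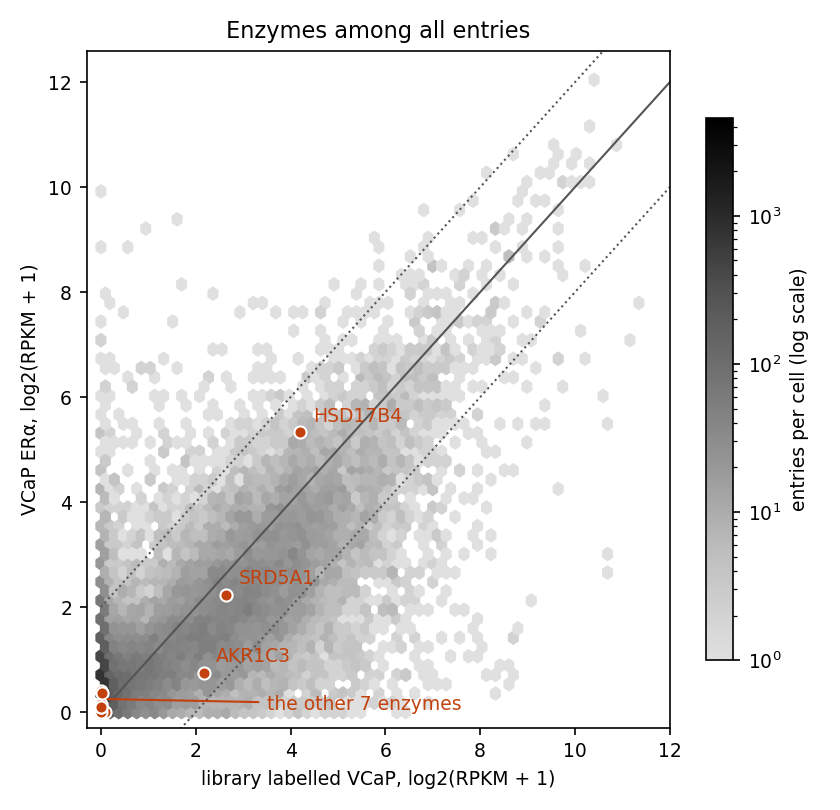
Each enzyme (orange) over all 25932 entries (grey cells, darker for more entries on a log colour scale), with log2(RPKM + 1) of the library labelled VCaP on the horizontal axis and of VCaP ERα on the vertical axis. The solid line marks equal values and the dotted lines log2 ratios of 2 and -2. All 10 enzymes lie between the dotted lines, HSD17B4 above the solid line, SRD5A1 and AKR1C3 below it, and the other 7 near the origin.

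The UGT2B glucuronosyltransferases, which remove androgens from the cell, were close to absent in both libraries. None of the 4 reached 1 RPKM in either library, and their sums were 0.0681 and 0.436 RPKM. UGT2B15, which conjugates dihydrotestosterone and its metabolite androstanediol, lies in the files at chr4:69194910-69218969 (human build hg18) and was at 0.0681 RPKM in the library labelled VCaP against 0.00337 RPKM in VCaP ERα. It was the only one of the 4 above 0 in the library labelled VCaP, and the only one lower in VCaP ERα (log2 ratio -0.09). A further UGT2B15 entry at chr4:69546932-69570979 was listed at 0 in both.

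UGT2B17, which acts on testosterone and dihydrotestosterone, lies at chr4:69085498-69116840 and was listed at 0 in the library labelled VCaP against 0.107 RPKM in VCaP ERα. UGT2B11, a close relative, lies at chr4:70100636-70115038 and was listed at 0 and 0.325 RPKM. UGT2B28, which can also conjugate androgen metabolites, lies at chr4:70180806-70195357 and was listed at 0 in both. UGT2B17 and UGT2B11 thus belonged to the entries at 0 in the library labelled VCaP and above 0 in VCaP ERα, which made up 21.6% of all entries. No fold was formed for them. The UGT2B genes are near copies of one another, reads can be shared or split between them, and the entry of an uncharacterised transcript that overlaps UGT2B11 was at 0 and 0.0358 RPKM, so the value of a single UGT2B gene is uncertain.

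The neighbourhood of these genes was low for the most part, though not silent. Within 1 megabase of a UGT2B gene of the set the files list 41 entries, of which 10 are UGT2 genes. Of the UGT2 entries, 8 were at 0 in the library labelled VCaP against 6 in VCaP ERα, 5 of them in both. Of all entries, 33.8% and 13.9% were at 0, and 12.2% in both. UGT2B4, best known as a liver enzyme of bile acid conjugation, was at 0 and 3.18 RPKM. It was the only 1 of the 41 entries past a log2 ratio of 2 in either direction. Of all entries, 2.27% were above 2 and 6.56% below -2. Of the hepatocyte markers, 5 of 8 were at 0 in the library labelled VCaP against 1 of 8 in VCaP ERα, beside the 33.8% and 13.9% of all entries. ALB, the albumin gene, was at 0 and 9.03 RPKM, and SERPINA1, another of the list, went the other way at 12.5 and 1.10 RPKM. Whether these values and that of UGT2B4 belong together was not tested. Of the other 31 entries, 25 and 16 were at 0. In each library 4 of the 31 reached 1 RPKM, beside 45.4% and 46% of all entries. Among these 4 were UBA6, a ubiquitin-activating enzyme, at 4.32 and 13.0 RPKM and YTHDC1, a reader of methylated RNA, at 7.17 and 11.4 RPKM.

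**Figure D3:**
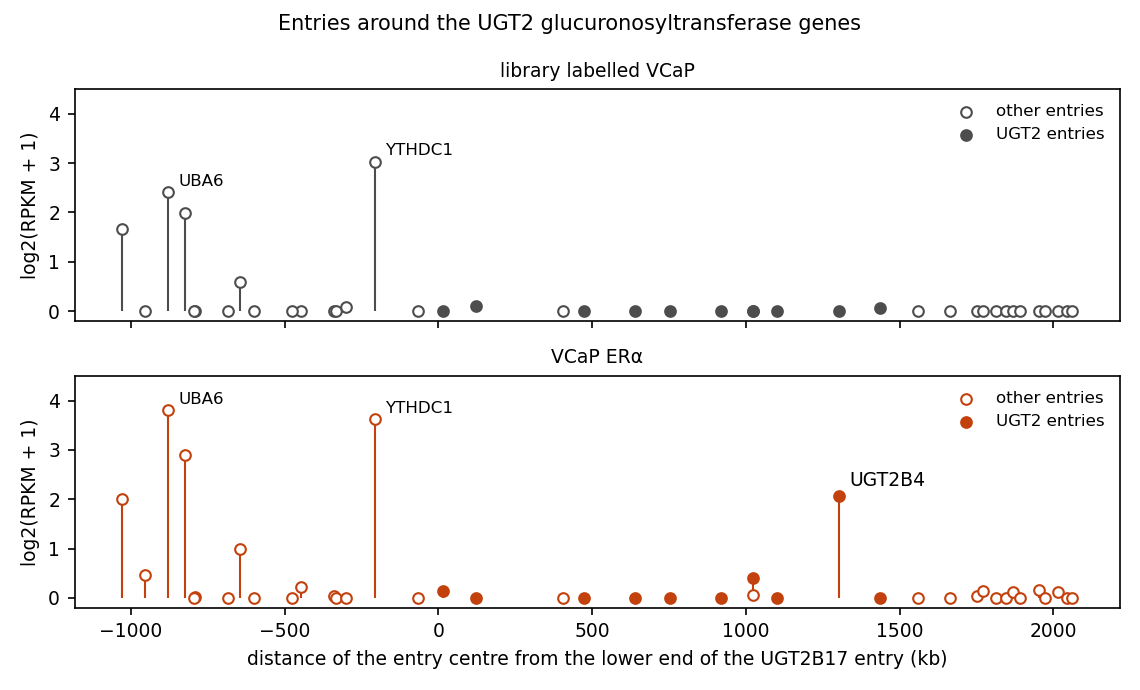
The 41 entries around the UGT2 genes of chromosome 4 as log2(RPKM + 1), against the distance in kb of the entry's centre from the lower end of the UGT2B17 entry, with the library labelled VCaP above and VCaP ERα below. Filled points are the 10 UGT2 entries and open points the other 31. In the upper panel the filled points stay at or near 0, and in the lower panel UGT2B4 at 3.18 RPKM stands above the other filled points, while UBA6 and YTHDC1 are high in both panels.

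The 5α-reductases differed from each other far more than between libraries. SRD5A1, the isoenzyme of wide tissue distribution, lies at chr5:6686500-6722675 and was at 5.25 RPKM in the library labelled VCaP against 3.71 RPKM in VCaP ERα. It was 1.41-fold higher in the library labelled VCaP (log2 ratio -0.41), higher than 72.2% of all entries there and than 76.1% in VCaP ERα, so its place among the entries rose while its RPKM fell. Centred on the median of entries expressed in both libraries the log2 ratio was 0.18, and after quantile normalization it was 0.32. The direction of SRD5A1 therefore depends on the scale.

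SRD5A2, the main isoenzyme of normal prostate, lies at chr2:31603160-31659544 and was listed at 0 in the library labelled VCaP against 0.0717 RPKM in VCaP ERα. Of these 2 isoenzymes, SRD5A1 was thus the higher in both libraries. Quantile normalization gave -0.006 for SRD5A2, a sign that carries no direction so near 0. SRD5A3, which also acts in protein glycosylation, was at 12.4 and 4.07 RPKM, the highest of the 3 SRD5A genes in both libraries.

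Among the enzymes of the set that act at carbon 17, the oxidative HSD17B4 was high. The other oxidative enzyme of the set, HSD17B2, was near 0. HSD17B4 is a peroxisomal enzyme of fatty acid β-oxidation whose dehydrogenase part also oxidises oestradiol to oestrone. The entry used, at chr5:118888810-118905926, holds 1 transcript and was at 17.5 RPKM in the library labelled VCaP against 39.4 RPKM in VCaP ERα, a 2.25-fold higher level in VCaP ERα (log2 ratio 1.13). By rank it was 2992 of all entries in the library labelled VCaP against 765 in VCaP ERα. This entry lies inside a longer one, at chr5:118816047-118905926 with 3 transcripts, which was at 14.1 and 21.0 RPKM, 1.49-fold higher in VCaP ERα (log2 ratio 0.55). VCaP ERα was the higher library by either entry, and the size of the difference depends on which is read.

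HSD17B2, which oxidises testosterone and oestradiol to weaker keto-steroids, lies at chr16:80626364-80689638 and was listed at 0 in the library labelled VCaP against 0.0664 RPKM in VCaP ERα. Its log2 ratio was 0.09, and -0.01 after quantile normalization, a sign that carries no direction so near 0.

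AKR1C3, the aldo-keto reductase that forms testosterone from androstenedione, was the only enzyme of the set with more than 1 RPKM in the library labelled VCaP and less in VCaP ERα. Its entry, at chr10:4924796-5139878, joins AKR1C1 and AKR1C3 under 1 value with 5 transcripts, and was at 3.49 RPKM in the library labelled VCaP against 0.683 RPKM in VCaP ERα. That is 5.10-fold higher in the library labelled VCaP (log2 ratio -1.41). AKR1C1, which inactivates progesterone, cannot be separated from AKR1C3 in it. AKR1C2, which inactivates dihydrotestosterone, lies wholly inside this interval and was at 37.2 and 0.0771 RPKM. A further overlapping entry, which joins AKR1CL2 and AKR1C1, was at 1.72 and 1.17 RPKM, a log2 ratio of -0.33 that is smaller than the median shift of -0.59. These genes are near copies, and how far reads of AKR1C2 enter the AKR1C3 value was not tested.

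CYP19A1, which encodes aromatase, lies at chr15:49287546-49418087 and was at 0.0191 RPKM in the library labelled VCaP against 0.284 RPKM in VCaP ERα. Both levels were far under 1 RPKM. The plain ratio was 14.9-fold higher in VCaP ERα, the log2 ratio with 1 RPKM added was 0.33, and by rank the gene held place 16967 in the library labelled VCaP and place 17552 in VCaP ERα. The ratio thus rose while the rank did not, and quantile normalization gave -0.05. Entries listed at 0 shared place 17176 in the library labelled VCaP against place 22326 in VCaP ERα. CYP19A1 thus stood just ahead of the zeros in the former and well ahead of them in the latter. The ranks are therefore not on a like scale, and neither they nor the quantile value give CYP19A1 a direction.

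The CYP19A1 interval also holds 46 small entries named only by a sequence identifier, 29 to 1103 bases long and 44 of them no longer than 100 bases. Of these, 1 was above 0 in the library labelled VCaP, at 0.963 RPKM, and 32 were above 0 in VCaP ERα, from 0.113 to 3.40 RPKM. Those above 0 in VCaP ERα spanned 37.0 kb of the 131 kb interval. Of the 44 entries of up to 100 bases, 2.27% were above 0 in the library labelled VCaP against 68.2% in VCaP ERα, beside 7.90% and 38.6% of all 1722 entries of that length, so short entries were more often above 0 in VCaP ERα throughout the files. The files give no strand, so reads of CYP19A1 and of transcripts running across it cannot be separated.

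The low values carried a trace of how they were made. Among entries of 1 transcript and up to 120 bases, the value multiplied by the length was a whole multiple of 0.900 or 1.348 in 90 of 148 entries above 0 in the library labelled VCaP (60.8%), and of 0.877 or 1.03 in 277 of 682 in VCaP ERα (40.6%), within 6e-07 RPKM. A value divided by such a step would be the mean number of reads over each base. On that reading CYP19A1 was covered 0.0141 to 0.0212 times per base in the library labelled VCaP against 0.275 to 0.323 times in VCaP ERα. UGT2B15 was covered 0.0505 to 0.0757 and 0.00327 to 0.00384 times, and UGT2B11 0.316 to 0.371 times in VCaP ERα. For these enzymes much of the transcript was therefore without a read, and entries listed at 0 were not shown to lack the RNA.

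At the other end, HSD17B4 was covered 13.0 to 19.4 times per base in the library labelled VCaP against 38.3 to 44.9 times in VCaP ERα, which puts it 2.31-fold or 2.95-fold higher in VCaP ERα, by the smaller and the larger step. SRD5A1 was covered 3.90 to 5.84 and 3.61 to 4.23 times, which puts it 1.38-fold or 1.08-fold higher in the library labelled VCaP. AKR1C3 was 4.97-fold or 3.90-fold higher in the library labelled VCaP. Each step divides every ratio by 1 constant, 0.974 or 0.764, so the directions of HSD17B4 and AKR1C3 could not turn. The difference in SRD5A1 nearly vanished by one of the steps. Which step applies to which gene was not established.

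The other genes of steroid metabolism and signalling were read from lists of 75 genes, which fell on 64 distinct entries, with ESR1, ESR2 and FOXA1 among them. Of these, 6 were above 2, ESR1 included, and 10 below -2. The comparison values are the same 2.27% and 6.56% of all entries, and among the entries that reached 1 RPKM in either library 4.21% and 12.2%. In direction, 33 were higher and 26 lower in VCaP ERα, and of the 36 that reached 1 RPKM in either library 12 were higher and 24 lower. The directions in each list below stand beside 46.6% of all entries higher and 41.2% lower, and 36% and 64% of those that reached 1 RPKM. The lists were drawn up from the biochemistry of the pathway with earlier results of these data known, and nothing particular to them is read from the counts.

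The 4 genes listed under UDP-glucuronate supply were all lower in VCaP ERα, and 2 were below -2. All 4 were at 1 RPKM or more in a library, where 64% of entries were lower. Supply of UDP-glucuronate to the UGT enzymes was not measured. UGDH, which makes UDP-glucuronate, was at 71.4 and 15.9 RPKM (log2 ratio -2.10), and SLC35D1, which carries it into the endoplasmic reticulum, was at 7.34 and 0.770 RPKM (-2.24). UGP2 and SLC35D2 were at 32.7 and 7.80 RPKM and at 12.3 and 2.62 RPKM. All 4 were lower also under centring and quantile normalization, where 0 and 1 of them were below -2. The 4 UGT2B enzymes of the set, at 0.325 RPKM or less, lay below all 4 genes of this list in both libraries. Of the other UGT2 and UGT1A genes, 15 genes on 6 entries, 1 entry was higher (UGT2B4) and 2 were lower. The entry shared by the UGT1A genes was at 2.25 and 0.158 RPKM.

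Of the other steroid reductases, 2 were higher, 3 lower and 1 at 0 in both, and 2 were below -2. These were AKR1C2, given above (log2 ratio -5.15), and AKR1B10, a retinal reductase, at 5.17 and 0.151 RPKM (-2.42). The entry of AKR1C1 is that of AKR1C3. Of 10 other 17β-hydroxysteroid dehydrogenases, 7 were higher and 3 lower in VCaP ERα, and 2 were above 2. HSD17B11, which oxidises androstanediol and sits on lipid droplets, was at 2.63 and 42.3 RPKM (3.57), and HSD17B12, which works in fatty acid elongation, was at 4.11 and 20.2 RPKM (2.06). HSD17B10, a mitochondrial dehydrogenase, was at 72.7 and 18.8 RPKM, the highest of the family in the library labelled VCaP. HSD17B4 with HSD17B11 and HSD17B12 thus were the 3 17β-hydroxysteroid dehydrogenases of these lists with more than 10 RPKM in VCaP ERα and a higher level there.

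The genes that build steroids from cholesterol were low except for their electron carriers. CYP17A1, which forms the androgen precursors, was at 0 and 0.493 RPKM, and STAR, which moves cholesterol into mitochondria, at 0 and 0.292 RPKM. CYP11A1, which cleaves the cholesterol side chain, was at 0.0539 and 1.38 RPKM. Of 10 genes of this list, 8 were higher in VCaP ERα and 2 lower. CYB5A, an electron carrier that aids CYP17A1, was at 47.9 and 204 RPKM (2.06), and POR, the reductase that serves microsomal cytochromes P450, aromatase included, was at 52.3 and 5.51 RPKM (-3.03). HSD3B7, an enzyme of bile acid synthesis, was at 6.50 and 0.802 RPKM (-2.06), and HSD3B1, which acts ahead of AKR1C3 in androgen synthesis, at 0 and 0.499 RPKM. In the list of 6 genes to which these belong, 4 were higher and 2 lower.

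Hydroxylation and sulphation, other routes of steroid removal, held some of the widest differences. Of 6 entries of hydroxylation, 4 were higher and 2 lower. CYP7B1, which hydroxylates oxysterols and dehydroepiandrosterone, was at 0 and 3.31 RPKM, above 2. CYP1B1, which hydroxylates oestrogens, was at 31.1 and 3.16 RPKM (-2.95). Of 8 genes of sulphation and desulphation, 2 were higher, 5 lower and 3 below -2. SULT2B1, a hydroxysteroid sulphotransferase, was at 38.8 and 0.197 RPKM (-5.05), and PAPSS2, which makes the sulphate donor, at 25.0 and 0.168 RPKM (-4.48). SUMF1, which activates sulphatases, was at 21.5 and 4.40 RPKM (-2.06). PAPSS1, the other donor synthase, was at 30.8 and 40.0 RPKM. SULT2B1, PAPSS2, UGDH and AKR1C2 were thus higher in the library labelled VCaP, as AKR1C3 was. So were 64% of all entries that reached 1 RPKM in either library, and PAPSS1 went the other way.

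Of 5 genes of steroid conjugate uptake, 3 were higher and 2 lower in VCaP ERα, none past the threshold, and SLCO4A1 was the highest at 3.04 and 2.26 RPKM. ESR1 was above 2 (log2 ratio 3.65). ESR2, the other oestrogen receptor, was at 0.0684 and 0.196 RPKM, and FOXA1, a factor that opens chromatin for ERα, was at 139 and 127 RPKM. The directions of FOXA1 and SLCO4A1 turned with the scale, as that of SRD5A1 did. Those of the genes named above as past the threshold did not. ESR2 was near 0, where the sign after quantile normalization carries no direction.

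**Figure D4:**
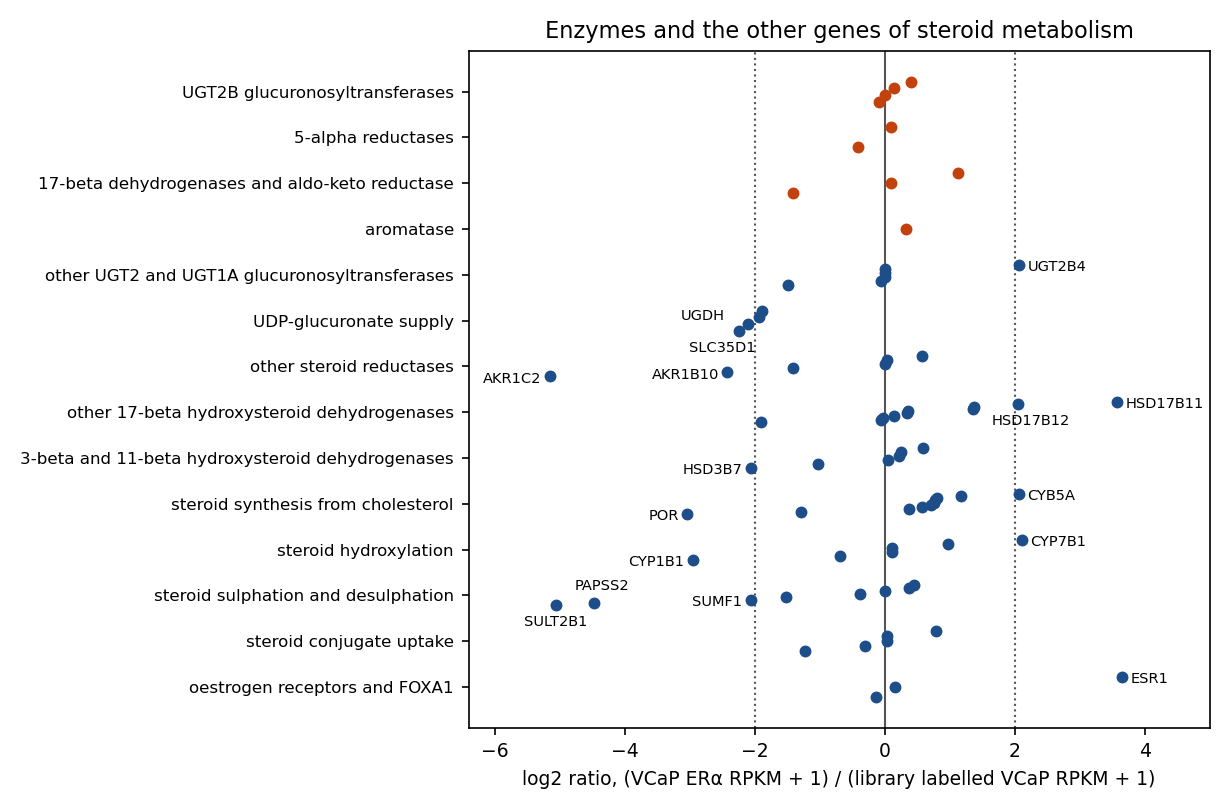
Log2 ratio of (RPKM + 1), VCaP ERα over the library labelled VCaP, on the horizontal axis, with 1 point per entry, the 10 enzymes in orange and the other lists in blue, and dotted lines at 2 and -2. The orange points lie between -1.41 and 1.13, while 6 blue points lie right of 2 and 10 left of -2, each of these labelled with its gene.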

How the data were processed

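RNA sequencing of the VCaP and VCaP ERα lines, 1 library each, was used. The authors computed and deposited RPKM values per entry with no normalization between libraries stated, and their processing notes name CASAVA 1.8 and the builds hg18 and mm10. The aligner, the treatment of reads that match several genes and the read totals are not given in the sources used here. No interval or floor was therefore formed, and no human sequence was used.

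From the deposited RPKM, log2 ratios with 1 RPKM added to each value and no filter were taken in Python 3.11.15 with numpy 2.4.6 and pandas 2.3.3. With 1 library per line no test was made. The log2 ratio and quantile normalization were checked on simulated data in which only entries of high RPKM changed. That check did not cover changes in low values, a shift between libraries or the steps found among short entries. The genes and lists were chosen with earlier results of these data known. Named are all 10 enzymes and, from each list, the gene of highest RPKM, the genes past 2 or -2, and ESR1, ESR2 and FOXA1. Some further genes are not reported here. UGP2, SLC35D2, SRD5A3, STAR, CYP17A1, CYP11A1, HSD3B1, UBA6 and YTHDC1 and the marker genes named were picked after their values were seen. Alternatives tried were 0.1 RPKM added in place of 1, only entries reaching 1 RPKM in a library, centring on the median of entries at 1 RPKM or more in both libraries, quantile normalization and the sum of a symbol's entries. Another 3, the longest entry and division by the smaller or the larger step, were chosen after seeing the data. A log2 ratio within 0.58 of that reported and a count within 1.5 times counted as unchanged.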

Additional observations from a re-analysis of the deposited data

How the results depend on the processing

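No paired analysis was possible because each line gave 1 library, and for the same reason none could be left out. With a pseudocount of 0.1 the log2 ratio was -0.70 for UGT2B15, -2.19 for AKR1C3 and 1.69 for CYP19A1, so that 1 enzyme was above 2 (UGT2B11, listed at 0 in the library labelled VCaP) and 1 below -2 (AKR1C3). The median of the enzymes was then 0.76, and 17 entries of the other lists were above 2. Centring gave 0.50 for UGT2B15, 0.18 for SRD5A1, 1.72 for HSD17B4, -0.82 for AKR1C3, 0.92 for CYP19A1 and 0.69 for the median, with 5 entries of the other lists below -2, and it moved every ratio by the median of -0.59 that it removes. Quantile normalization gave 0.32 for SRD5A1 and 1.77 for HSD17B4. The share of all entries past 2 or -2 was not taken under these settings, so nothing is read from the counts under them. Of the 62 values under alternatives, 16 moved and 46 did not. Some of the 46 could not move. The minimum of 1 RPKM leaves a ratio as it is. The sum and the longest entry change nothing for a symbol with 1 entry. CYP19A1 went from 0.33 to -0.05 under quantile normalization and still counted as unchanged, so the tally does not measure robustness. The minimum of 1 RPKM left 3 enzymes, HSD17B4, SRD5A1 and AKR1C3, so the median and the values of the other 7 have none under it.

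Depth limits the low genes most. Of the 7 enzymes under 1 RPKM in both libraries, UGT2B28 was 0 in both and has no direction. The directions of the others rest on low coverage.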

Other observations

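The mouse libraries of the series, from embryonic fibroblasts of C57BL/6 mice, wild type (WT) and NEAT1 knockout (KO), 1 library each, list 5 genes of the same names. Hsd17b4 was at 16.9 RPKM in WT and 16.4 RPKM in KO, and Srd5a1 at 1.98 and 1.20 RPKM (log2 ratio of KO to WT with 1 RPKM added, -0.43). Srd5a2 was at 0 and 0.0201 RPKM, Cyp19a1 at 0.0134 and 0 RPKM, and Hsd17b2 was listed at 0 in both. In these fibroblasts, as in the human libraries, Hsd17b4 was the highest of the 5 and Srd5a1 the next. None passed a log2 ratio of 2 or -2, beside 52 of 23329 entries above 2 and 4 below -2.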
